A study of Mus musculus and Macaca nemestrina with 20 samples.

Results

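Dorsal root ganglia of mice labelled ADAM17 KO were compared with those of mice labelled ADAM17 flox within batch 1 of the series. The libraries were chosen by their genotype and batch labels alone, which gave 4 knockout and 3 flox libraries, 7 of the 14 mouse libraries and of the 20 libraries in all. Each library held bulk RNA of ganglia, measured as estimated counts per gene. Flox mice carry a gene flanked by recombination sites. The flox samples are titled control, and their library names carry WT. The labels do not give the Cre driver, the deleted exons, the tissue of deletion, the sex, age or strain of the mice, or the number of animals behind a library. P-values therefore measure the spread between libraries, which may be technical.

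Dorsal root ganglia contain the sensory neuron somata for touch, temperature, pain and itch, wrapped by satellite glia and followed by Schwann cells along the nerve. ADAM17 is a membrane metalloproteinase that releases the outer part of other membrane proteins, among them tumour necrosis factor, ligands of the EGF receptor and cytokine receptors. A small class of itch neurons, named NP3, uses the natriuretic peptide made from Nppb as a transmitter, and carries receptors for interleukin 31, oncostatin M and cysteinyl leukotrienes. The series is titled for that peptide in chronic itch.

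Depth followed genotype in batch 1. The 4 knockout libraries held 12119749 to 14718779 estimated counts and the 3 flox libraries 46931233 to 52085535. The smallest level that 3 counts represent was thus 0.206 to 0.263 CPM (counts per 1000000 after TMM scaling) in knockout libraries and 0.0569 to 0.0633 CPM in flox libraries. Mitochondrially encoded genes took 8.21% to 8.70% of counts in knockout and 8.22% to 10.9% in flox libraries. Knockout library 4 stood apart from the other 3. On the first principal component (40.3% of variance) it lay at -16.6, beside flox library 1 at -18.3, while knockout libraries 1 to 3 lay at 35.1 to 57.7. Its 7 erythroid genes summed to 53930 CPM, against 2509 to 4375 in the other knockout and 4528 to 13930 in the flox libraries. Its 10 skeletal muscle genes summed to 3364 CPM, against 28.7 to 157 and 378 to 1512. Counts of called list members without this library are given beside the lists they change. Over all genes, 882 of 15887 were called without this library, 400 higher and 482 lower. Without flox library 1, 675 of 15406 were called, 226 higher and 449 lower. All levels below are CPM on TMM-scaled library totals, given for knockout libraries 1 to 4 and flox libraries 1 to 3 in that order.

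Adam17 RNA itself did not differ detectably between the genotypes. Adam17 (GRCm38 chr12:21323509-21373632, minus strand) was at 25.9, 17.6, 22.1 and 36.8 CPM in the knockout and at 22.8, 33.1 and 24.2 CPM in the flox libraries. The groups overlapped, with the highest value in knockout library 4 and the lowest in knockout library 2. The log2 difference of knockout minus flox was -0.06 ± 0.25 (SE), with an edgeR adjusted p of 0.928 (quasi-likelihood test, Benjamini-Hochberg adjustment over all tested genes, as for each adjusted p below). The value covers every exon of the gene, and the deleted exons are not given, so this RNA level neither checks nor contradicts the genotype labels. None of the 8 tested genes for ADAM17, its relative Adam10 and its regulators was called (adjusted p under 0.05), and their median log2 difference was -0.10. Timp3, which encodes the tissue inhibitor of ADAM17, was at 316, 314, 273 and 356 against 422, 506 and 480.4 CPM, with no overlap between groups and an edgeR adjusted p of 0.07698. Of 16 genes for shed ligands and receptors of the EGF receptor family and other ADAM17 substrates, 11 were tested and none was called, with a median of -0.27. Egfr, the receptor itself, was at 5.49, 9.35, 7.56 and 16.3 against 18.3, 27.7 and 29.8 CPM (log2 difference -1.39 ± 0.35, edgeR adjusted p = 0.0833). The ligand genes Areg, Ereg, Epgn and Egf, and Tnf, had at most 30 counts in any library and were not tested. Timp3 and Egfr were each called lower without knockout library 4, with edgeR adjusted p of 0.035 and 0.0135.

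Nppb and 3 receptor genes of the same neuron class were higher in the knockout ganglia. Nppb (GRCm38 chr4:147985788-147987205, plus strand) was at 128, 122, 109 and 179.6 CPM in the knockout and at 43.5, 60.9 and 45.97 CPM in the flox libraries. Every knockout library lay above every flox library. The log2 difference was 1.43 ± 0.21 (SE), a 2.69-fold higher level, with an edgeR adjusted p of 0.0149. By exact permutation (two-sided, log2 of CPM + 1) p was 0.0286, the smallest value that 35 splits can give. Nppb was no longer called without flox library 3, where the log2 difference was 1.37 and the edgeR adjusted p 0.11. In bulk ganglia, more RNA per neuron and more neurons of a type cannot be told apart.

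The interleukin 31 receptor gene Il31ra (GRCm38 chr13:112519898-112594360, minus strand) was at 68.3, 53.6, 43.4 and 38.4 CPM in knockout and 18.9, 13.9 and 14.2 CPM in flox libraries. Its log2 difference was 1.70 ± 0.23, or 3.25-fold, with an edgeR adjusted p of 0.00986. Osmr, the oncostatin M receptor that pairs with Il31ra, was at 85.7, 58.1, 60.3 and 60.5 against 24.3, 24.99 and 31.4 CPM. Knockout library 1 was the highest and the other 3 lay close together, all above the flox libraries (log2 difference 1.30 ± 0.18, edgeR adjusted p = 0.0129). Cysltr2, a receptor for cysteinyl leukotrienes, was at 15.4, 8.51, 11.2 and 9.46 against 4.76, 3.42 and 3.104 CPM. Here too the groups did not overlap (log2 difference 1.57 ± 0.29, edgeR adjusted p = 0.0328). Cysltr2 lost its call without any of 5 libraries in turn, Osmr without flox library 2 and Il31ra without flox library 3.

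The other 3 NP3 genes were not called. Nts, which encodes the peptide neurotensin, was at 37.3, 72.5, 69.1 and 37.2 against 34.2, 31.4 and 27.4 CPM (log2 difference 0.80 ± 0.27, edgeR adjusted p = 0.169). Htr1f, a serotonin receptor, was at 10.9, 8.72, 10.4 and 12.4 against 7.74, 6.54 and 4.08 CPM, with an edgeR adjusted p of 0.179. Both genes were above every flox library in all 4 knockout libraries. Sst, which encodes somatostatin, ranged from 4.71 to 36.3 CPM over the knockout libraries and from 21.3 to 26.4 over the flox libraries, so the groups overlapped. In all, 4 of the 7 tested NP3 genes were called higher, and their median log2 difference was 1.30. Without flox library 2 this count was 2 and without flox library 3 it was 1. Over all 15140 tested genes the median was -0.004, with 1.12% called higher and 0.687% called lower.

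The 250 bases before the annotated start of Il31ra are shown for a match to the letters bound by STAT factors, which act below the interleukin 31 and oncostatin M receptors. The sequence is from RefSeq, GRCm38.p6, minus strand, chr13:112580663-112580912, read 5′ to 3′, with the match in capitals. This RefSeq start lies inside the gene range of GENCODE M21 given above, and no GENCODE exon overlaps the sequence.
Il31ra: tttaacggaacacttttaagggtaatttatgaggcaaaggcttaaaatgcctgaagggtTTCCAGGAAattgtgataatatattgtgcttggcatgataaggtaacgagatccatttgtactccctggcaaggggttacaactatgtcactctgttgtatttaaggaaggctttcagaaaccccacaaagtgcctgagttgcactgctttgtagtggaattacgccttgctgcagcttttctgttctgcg
The match TTCCAGGAA began 191 bases before the start. The letters TTCNNNGAA occurred on either strand in 6.307% of 19281 promoters of this length. They occurred in 17 of 162 promoters of genes called higher (10.5%) and in 8 of 99 of genes called lower (8.08%), and a match does not show binding.

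Across the transcriptome, 273 of 15140 tested genes (1.8%) were called, 169 higher and 104 lower in the knockout. Of the called genes, 232 (1.53% of those tested) differed by more than 2-fold, 136 higher and 96 lower. The median log2 difference was 1.52 among genes called higher and -2.12 among those called lower. The knockout and flox libraries did not overlap for any of the 273 called genes. Without overlap, whatever the test gave, 6.9% of all tested genes were higher and 7.38% were lower. At an unadjusted p under 0.05 the edgeR test found 2480 genes (16.4%), 1083 higher (7.15%) and 1397 lower (9.23%). On the deposited TPM, limma on log2(TPM + 1) called 203 genes higher and 162 lower, and 154 higher and 181 lower once the TPM were rescaled to one sum in every library.

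**Figure D1:**
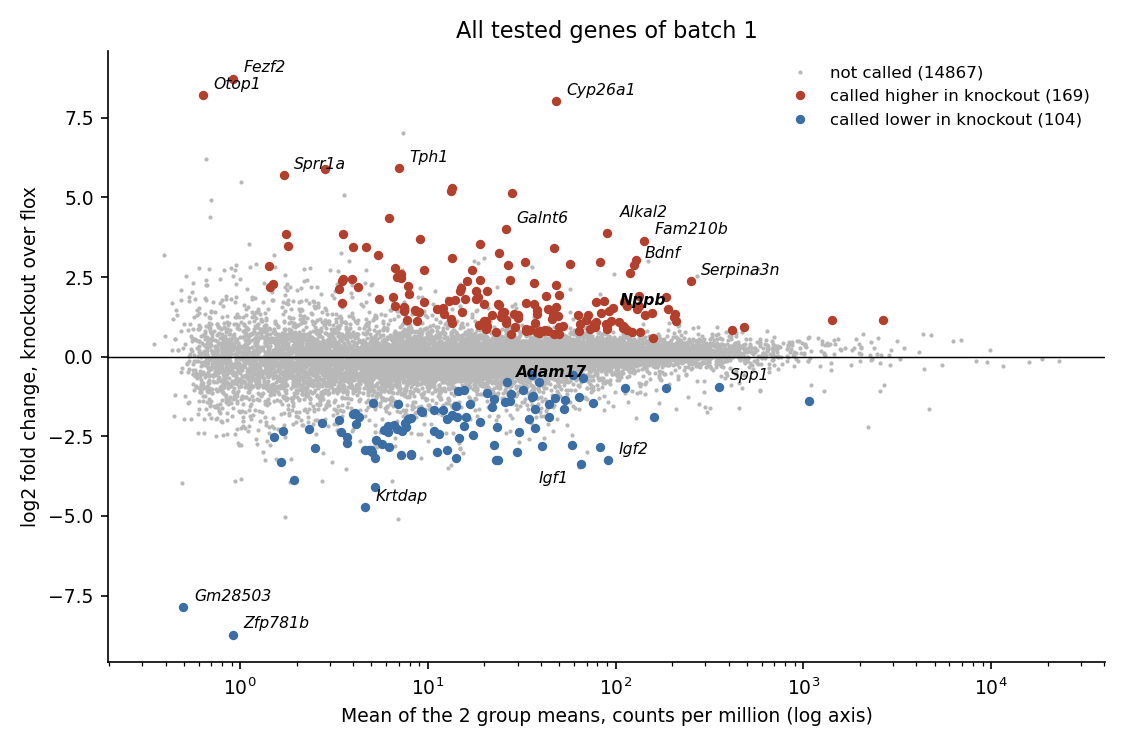
Log2 fold change of knockout over flox (vertical axis) against the mean of the group means in CPM (horizontal log axis) for each gene tested in batch 1. The 169 genes called higher are red and the 104 called lower blue; Fezf2, Otop1, Zfp781b and Gm28503 had no count in one genotype, so their heights depend on the prior count of the fit.

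The gene with the largest rise that had counts in both genotypes was Cyp26a1, which encodes the enzyme that degrades retinoic acid. Cyp26a1 (GRCm38 chr19:37697798-37701536, plus strand) was at 126, 73.5, 120.1 and 65.02 CPM in the knockout and at 0.171, 0.0422 and 0.878 CPM in the flox libraries. The flox libraries were near 0 although they were sequenced more deeply. The log2 difference was 8.03 ± 0.80 (SE), with an edgeR adjusted p of 0.00422. Lrat, which stores retinol as an ester, rose from 2.85, 3.52 and 2.66 CPM in flox to 39.9, 31.9, 37.3 and 29.97 CPM in knockout libraries (11.6-fold, edgeR adjusted p = 1.52e-04). Rbp4, the retinol carrier, fell from 37.7, 109.7 and 65.1 CPM in flox to 11.9, 10.1, 7.12 and 11.2 CPM in knockout libraries (log2 difference -2.81 ± 0.34, edgeR adjusted p = 0.00651).

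Among 13 tested retinoic acid genes, Cyp26a1 was the only one called, and the other 12 had log2 differences below 0, with a median of -0.68 over all 13. Aldh1a2, which makes retinoic acid from retinal, was at 5.42, 11.5, 3.49 and 13.1 against 23.4, 68.7 and 38.7 CPM, with no overlap and an edgeR adjusted p of 0.0566. Crabp2, a retinoic acid carrier inside cells, was at 6.38, 6.89, 7.34 and 19.4 against 20.4, 106 and 51.3 CPM (edgeR adjusted p = 0.0787). The receptor genes Rara, Rarb and Rarg overlapped between groups, with log2 differences of -0.55, -0.44 and -0.41. Without knockout library 4, 4 of these genes were called lower, and without flox library 1, 3 were.

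The Cyp26a1 promoter is shown because its only match to the searched motifs is to the letters of a retinoic acid response element with a spacing of 5 bases. It is the plus strand of RefSeq, GRCm38.p6, chr19:37697558-37697807, 5′ to 3′, with the match in capitals; its last 10 bases lie in the first exon of the GENCODE M21 model.
Cyp26a1: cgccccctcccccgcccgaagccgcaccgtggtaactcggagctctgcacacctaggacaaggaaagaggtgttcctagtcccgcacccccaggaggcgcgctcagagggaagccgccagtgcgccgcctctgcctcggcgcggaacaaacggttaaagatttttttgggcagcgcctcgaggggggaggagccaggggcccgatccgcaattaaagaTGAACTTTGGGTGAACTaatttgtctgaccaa
The match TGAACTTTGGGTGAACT began 32 bases before the start and reads on the other strand as AGTTCA repeated after a gap of 5 bases. These letters occurred in 3 of 19281 promoters (0.016%), and 2 of these, those of Cyp26a1 and Blvrb, belong to genes called higher. Only these exact repeats were searched and no variants of them, so the share does not count other forms of the element. The searched repeats equal those of the Cyp26a1 promoter itself, so its match and these counts are a description only. A match does not show binding.

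The rises with the lowest p-values were found in genes of varied function. Fam210b, a mitochondrial protein gene, was at 314, 269.8, 279 and 191 CPM in knockout and 20.7, 20.5 and 21.97 CPM in flox libraries (12.5-fold, edgeR adjusted p = 1.52e-04). Galnt6, which starts O-linked glycosylation, was at 48.4, 54.8, 46.4 and 46.6 against 3.09, 2.003 and 4.11 CPM (15.96-fold, edgeR adjusted p = 2.03e-04). In both genes the lowest knockout library was far above the highest flox library. Alkal2, a ligand of the receptor kinase ALK, was at 211, 203, 153 and 109 against 14.5, 12.8 and 7.21 CPM (14.7-fold, edgeR adjusted p = 0.00149). Bdnf, the brain-derived neurotrophic factor, was at 239, 179.7, 267 and 201 against 26.5, 33.5 and 29.6 CPM (7.41-fold, edgeR adjusted p = 2.03e-04). Pkib, an inhibitor of protein kinase A, was at 224, 192, 221 and 181 against 34.6, 39.8 and 24.4 CPM (6.203-fold). Each of these genes stayed called when any 1 library was left out.

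Sectm1b rose from 0.664, 1.14 and 0.306 CPM in flox to 19.3, 15.04, 39.6 and 29.97 CPM in knockout libraries, and Accsl from 1.44, 0.1898 and 0.347 to 27.6, 25.2, 31.9 and 20.2 CPM. For these 2 genes no flox library came near the knockout range. Cdh9, a cadherin, was at 28.7, 25.5, 21.5 and 22.8 against 5.35, 5.59 and 5.74 CPM (4.43-fold), and Serpinb1a, an inhibitor of neutrophil proteases, at 245, 271, 359 and 294 against 74.5, 89.8 and 76.2 CPM (3.65-fold). Cyp1a1, a target of the aryl hydrocarbon receptor, rose 14.4-fold from 0.759, 0.211 and 0.388 to 5.97, 4.99, 8.36 and 7.19 CPM. Il1r2, a decoy receptor for interleukin 1, rose 20.4-fold from 1.22, 0.105 and 0.388 to 6.45, 10.1, 22.2 and 8.33 CPM, and its call was lost without any of 5 libraries.

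Fezf2, a transcription factor gene of cortical neurons, had no count in any flox library and was at 2.06, 0.562, 2.69 and 2.02 CPM in the knockout libraries. Against 3 counts in each flox library it was at least 30.3-fold higher (edgeR adjusted p = 0.0172). Otop1, a proton channel gene, also had no flox count and was at 1.03, 0.492, 1.89 and 1.67 CPM in the knockout libraries, at least 20.98-fold higher on the same basis (edgeR adjusted p = 0.0198). Both levels were low, and both calls were lost without any of 4 libraries in turn.

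Tph1, the enzyme for the first step of serotonin synthesis outside the brain, rose sharply. It was at 23.2, 14.7, 9.81 and 7.36 CPM in the knockout and 0.114, 0.105 and 0.449 CPM in the flox libraries (log2 difference 5.93 ± 0.67, edgeR adjusted p = 0.00422). It was the only 1 of 7 tested genes for serotonin synthesis and transport that was called, and the median of the list was 0.53. Slc6a4, the serotonin transporter, was at 5.69, 6.19, 4.797 and 6.05 against 0.797, 2.72 and 3.13 CPM, with no overlap but an edgeR adjusted p of 0.172. Ddc, the enzyme of the next step, overlapped between groups at 1.37, 10.7, 2.84 and 1.49 against 3.85, 2.003 and 2.86 CPM. In the mast cell list, whose cells also make serotonin, 4 of 10 genes were tested and none was called, with a median of 0.21. Hdc, which makes histamine, was at 3.29, 5.55, 11.9 and 5.96 against 2.24, 1.41 and 2.72 CPM (edgeR adjusted p = 0.117). The highest count in any library was 2114 for Kit, 163 for Hdc, 135 for Cma1, 98 for Cpa3, 71 for Mcpt4, 43 for Ms4a2, 28 for Fcer1a, 13 for Tpsab1 and 7 for Mrgprb2. The part of mast cells in the Tph1 value was not tested.

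**Figure D2:**
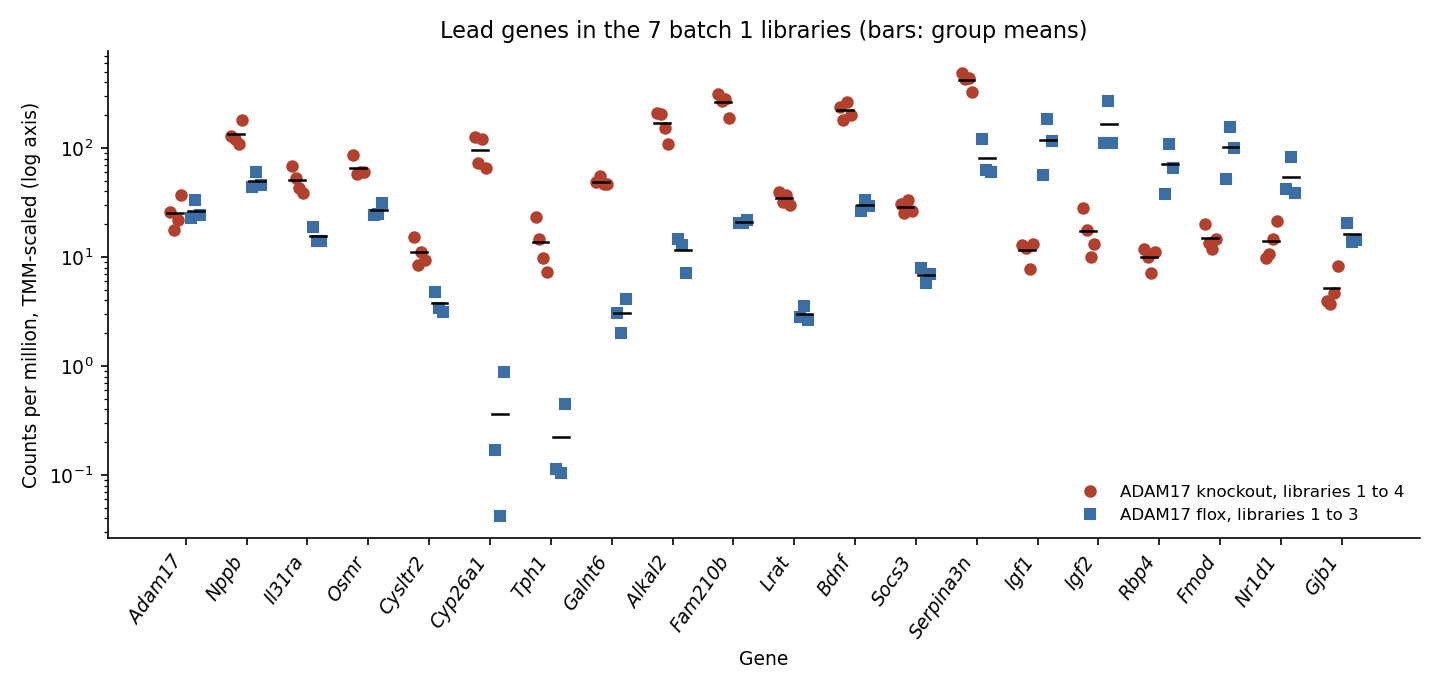
Levels of 20 genes in CPM (log axis) in each of the 4 knockout (red circles) and 3 flox (blue squares) libraries of batch 1, with black bars at the group means. The groups overlap for Adam17 and are apart for the other 19 genes.

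Genes that sensory neurons switch on after nerve injury were partly higher. Of 16 tested, 5 were called higher and none lower. Log2 differences were above 0 for 13 and below 0 for 3, with a median of 0.88. Sox11, a transcription factor of axon growth, rose from 6.24, 5.06 and 4.29 to 31.9, 20.2, 29.7 and 26.99 CPM (5.23-fold, edgeR adjusted p = 0.00223). Sprr1a, a small proline-rich protein of regrowing axons, rose from 0.114, 0.0422 and 0.0204 to 1.85, 1.55, 6.32 and 3.68 CPM (log2 difference 5.71 ± 0.82, edgeR adjusted p = 0.0135). Its flox level rested on 9 counts over 3 libraries. Atf3, the best-known injury transcription factor, was at 16.8, 21.02, 14.4 and 13.5 against 6.45, 7.49 and 3.62 CPM (2.81-fold, edgeR adjusted p = 0.0412). Fst, the activin-binding follistatin, rose 6.56-fold and Gadd45a, a stress gene, 1.92-fold. Other members overlapped between groups: Gal, the neuropeptide galanin, was at 30.9, 29.2, 26.8 and 28.4 against 28.9, 49.1 and 31.2 CPM, and Gap43, a growth cone protein gene, at 185, 195, 215 and 199.8 against 193, 165 and 151 CPM. Without flox library 3 only 2 of the 16 were called, and without knockout library 4, 6 were. Without flox library 1, 5 were called higher and 1 lower.

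The Sprr1a promoter is shown because it holds 2 copies of the AP-1 letters, the motif of Fos and Jun proteins. It is the minus strand of RefSeq, GRCm38.p6, chr3:92485882-92486131, 5′ to 3′, with both copies in capitals; the last 14 bases lie in the first exon of the GENCODE M21 model.
Sprr1a: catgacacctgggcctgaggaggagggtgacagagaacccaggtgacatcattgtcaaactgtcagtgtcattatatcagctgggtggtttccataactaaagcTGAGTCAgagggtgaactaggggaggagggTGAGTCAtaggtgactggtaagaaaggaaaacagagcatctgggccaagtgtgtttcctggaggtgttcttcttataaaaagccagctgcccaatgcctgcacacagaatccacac
The copies of TGAGTCA began 146 and 116 bases before the start. The letters TGANTCA occurred in 5.918% of the 19281 promoters, in 7.41% of those of genes called higher and in 10.1% of those of genes called lower. The Sprr1a promoter also matches the D-box letters TTATGNAA, not put in capitals. These occurred in 2.453%, 6.17% and 2.02% of the same promoters, and those of the cyclic AMP response element (TGACGTCA) in 2.012%, 1.85% and 1.01%. A match does not show binding. Of 10 tested immediate early genes, 2 were called higher and none lower, with a median of 0.36. Jun was at 218, 169, 204 and 226 against 84.8, 101 and 63.4 CPM (2.46-fold, edgeR adjusted p = 0.0146) and Fosl2 at 31.6, 22.8, 45.1 and 44.7 against 13.2, 10.5 and 11.1 CPM (3.11-fold, edgeR adjusted p = 0.0182). Without knockout library 1 or 3 or flox library 3 no immediate early gene was called, 1 was without flox library 2, and 3 were without knockout library 4. Fos overlapped between groups at 11.2, 9.63, 16.7 and 14.2 against 4.12, 16.2 and 5.56 CPM.

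Acute-phase and inflammation genes held the most called members, by number, of any of the 40 lists. By share the NP3 list held more, at 4 of 7, and all lists were chosen with earlier results of these data known. Of 20 acute-phase and inflammation genes, 19 were tested, 7 were called higher and none lower, with a median log2 difference of 1.65. Socs3, the feedback inhibitor of STAT3 signalling, rose from 7.92, 5.74 and 6.98 to 30.6, 25.2, 33.6 and 26.6 CPM (4.22-fold, edgeR adjusted p = 0.00185). Serpina3n, a secreted protease inhibitor, rose from 121, 63.5 and 60 to 489, 428, 440.4 and 329.6 CPM (5.18-fold, edgeR adjusted p = 0.00526). In both genes the groups were well apart, and both stayed called without any 1 library. Tifa, an adaptor of NF-kappaB signalling, rose 7.47-fold (edgeR adjusted p = 2.03e-04) and Bcl3, a nuclear partner of NF-kappaB, 3.54-fold. Lcn2 (lipocalin 2) was at 86.5, 77.4, 310.1 and 109.5 against 12.5, 16.1 and 27.04 CPM, with knockout library 3 the highest, and C3, complement component 3, at 32.9, 34.8, 47.8 and 56.8 against 14.3, 15.8 and 21.7 CPM. Saa3, a serum amyloid A gene, was at 1.44, 1.62, 4.07 and 6.05 against 0.285, 0.401 and 0.184 CPM. Other members had differences below 0 without being called, such as Ccl2 at 3.22, 2.18, 2.91 and 5.35 against 5.24, 20.9 and 10.2 CPM. Leaving out 1 library gave 4 to 6 members called higher, and 2 called lower without knockout library 4 or without flox library 1.

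Cytokine receptor and JAK-STAT genes held a single call. Of 21 tested, 1 was called higher and none lower, with a median of 0.13. Il4ra, the receptor chain for interleukins 4 and 13, rose from 20.8, 13.03 and 19.5 to 69.9, 57.2, 58.7 and 37.8 CPM (3.14-fold, edgeR adjusted p = 0.0152). Its partner Il13ra1 was at 45.6, 36.8, 56.04 and 31.1 against 14.8, 23.6 and 25.8 CPM and Stat3 at 358, 319.6, 297 and 255 against 225, 198 and 203 CPM, both without overlap, with edgeR adjusted p of 0.0874 and 0.1002. Il6st, the shared gp130 chain, was lower in every knockout library, at 163, 151, 129.5 and 143 against 169, 225 and 249 CPM (edgeR adjusted p = 0.1296). Without knockout library 4, 4 of the 21 were called higher, and none was without knockout library 1 or 3 or flox library 2 or 3, where Il4ra lost its call.

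Genes of neutrophils and of their marrow precursors had large differences with a wide spread between libraries. All 14 tested had log2 differences above 0, with a median of 2.28, and 11 passed an unadjusted p of 0.05 while 1 was called. S100a8, a calcium-binding protein of neutrophils, was at 596, 558, 1956 and 874 CPM in knockout and 65.5, 158 and 217 CPM in flox libraries. Knockout library 3 was the highest and all 4 lay above the flox libraries, but the edgeR adjusted p was 0.0602. Retnlg, the called member, was at 52.9, 53.8, 125 and 87.6 against 10.5, 18.9 and 21.1 CPM (4.75-fold, edgeR adjusted p = 0.0255). Summed over the list, knockout libraries held 1933, 1835, 6456 and 2604 CPM and flox libraries 246, 575 and 821 CPM. Lcn2 and Serpinb1a, described above, are also known from neutrophils, and the part of these cells in their values was not tested. Retnlg lost its call without flox library 2 or 3, where no gene of the list was called, and 3 were called without knockout library 4.

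The erythroid, lymphocyte, macrophage and MHC class II lists held 1 call in all. Erythroid genes had none of 7 called and a median of 0.70, which turned to -1.56 without knockout library 4, where 1 was called lower. Of 10 tested lymphocyte and plasma cell genes, Ighg1, an immunoglobulin heavy chain gene, was called higher at 0.892, 2.11, 8.504 and 10.9 against 0.01898, 0.169 and 0.0817 CPM (edgeR adjusted p = 0.0324), and the list's median was -0.26. Its knockout values spread widely, with libraries 3 and 4 above libraries 1 and 2, and its call was lost without knockout library 2 or 3 or flox library 2 or 3. Without flox library 1, 3 genes of the list were called lower. None of 13 macrophage genes was called, with a median of -0.30, and 2 were called lower without knockout library 4. Cx3cr1, a receptor of resident macrophages, was at 4.87, 2.95, 2.04 and 2.804 against 6.64, 9.26 and 6.45 CPM (edgeR adjusted p = 0.109), and Mgl2, a lectin of dendritic cells and macrophages chosen for its low p, fell from 7.896, 10.9 and 11.1 to 1.24, 1.76, 2.62 and 2.45 CPM (edgeR adjusted p = 0.0119). None of 7 genes of MHC class II presentation was called, with a median of -0.37, and 5 were called lower without knockout library 4, in which their summed level was 617 CPM against 264 to 318 in the other knockout libraries.

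Interferon response genes went both ways. Of 12 tested, 1 was called higher and 2 lower, with a median of -0.45. Oasl2 rose from 38.3, 35.2 and 33.2 to 79.1, 70.4, 68.9 and 57.7 CPM (1.94-fold, edgeR adjusted p = 0.0172). Ifit3 fell from 41.8, 54.7 and 54.9 to 17.9, 20.7, 14.7 and 30.1 CPM (log2 difference -1.28 ± 0.23, edgeR adjusted p = 0.0322) and Usp18, which trims ISG15 from proteins, from 18.6, 13.7 and 9.86 to 3.22, 5.904, 3.198 and 4.995 CPM (log2 difference -1.70 ± 0.31, edgeR adjusted p = 0.0323). The 3 genes are all classed as interferon targets. Without knockout library 4, 6 of the 12 were called lower, and none was without knockout library 1, 2 or 3 or flox library 2 or 3. Oasl2 lost its call without knockout library 1 or 3 or flox library 2 or 3.

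The falls were led by growth factors and extracellular matrix genes. Igf1, insulin-like growth factor 1 (GRCm38 chr10:87858265-87937042, plus strand), was at 12.8, 12.1, 7.85 and 13.2 CPM in the knockout and 56.7, 183 and 116 CPM in the flox libraries. Flox library 2 was the highest, and even flox library 1, the lowest of its group, was far above every knockout library. The log2 difference was -3.37 ± 0.37 (SE), with an edgeR adjusted p of 0.00422. Igf2, the related fetal growth factor, fell from 112, 271 and 110.3 to 28.2, 17.8, 10.03 and 13.1 CPM (log2 difference -3.25 ± 0.44, edgeR adjusted p = 0.0135). Igfbp2, a binding protein of both, fell from 88.2, 224 and 123 to 28.5, 15.3, 12.1 and 24.7 CPM (log2 difference -2.85 ± 0.38, edgeR adjusted p = 0.0119). Igf1 and Igfbp2 stayed called without any 1 library, and Igf2 lost its call without knockout library 2 only.

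Fmod, the collagen-binding fibromodulin, fell from 51.97, 155 and 101 to 20.1, 13.4, 11.9 and 14.6 CPM (log2 difference -2.77 ± 0.34, edgeR adjusted p = 0.007796). None of the 14 tested fibroblast and matrix genes was called, although 13 had differences below 0, 12 passed an unadjusted p of 0.05 and the median was -1.52. The DESeq2 Wald test called 12 of them lower, of 561 genes it called lower in all, and limma-voom 2 of 40. Col1a1, a chain of type I collagen, was at 45.9, 36.1, 34.8 and 97.1 CPM in knockout and 123, 268 and 216 CPM in flox libraries (log2 difference -1.92 ± 0.40, edgeR adjusted p = 0.0546). Knockout library 4 was the highest knockout library and flox library 1 the lowest flox library for this gene. Without knockout library 4, 11 of the 14 were called lower, against 482 of all 15887 tested genes, and the median was -1.90. Without flox library 1, 7 were called lower, against 449 of all 15406, and the median was -1.78. The erythroid and muscle sums given above set the same knockout library apart, and their part in these values was not tested.

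Several of the genes that fell are known from the meninges, the coverings that reach the ganglion with the spinal root. A list of 20 such genes was written after these falls had been seen, so its counts are a description only. All 20 had log2 differences below 0, with a median of -2.23, 9 were called lower and none higher. Igf2, Igfbp2, Gjb2, Slc6a20a, Slc22a6, Slc22a8, Slc47a1, Slc13a3 and Dpp4 were the called members. Slc6a20a, an amino acid transporter gene, was at 9.74, 15.04, 12.2 and 14.7 against 30.6, 91.6 and 62.02 CPM (log2 difference -2.25 ± 0.33, edgeR adjusted p = 0.0164). Gjb2, a gap junction protein gene of the arachnoid layer, fell from 10.3, 66.8 and 47.9 to 3.84, 5.98, 2.62 and 5.08 CPM (edgeR adjusted p = 0.0333). Summed over the list, the levels were 509, 1142, 820 and 1540 CPM in knockout and 2441, 7065 and 4359 CPM in flox libraries. In every library most of this sum came from Ptgds, the prostaglandin D synthase, at 338, 949, 615 and 1235 against 1909, 5511 and 3428 CPM. Aldh1a2 and Crabp2 are on this list too, and the part of meningeal tissue in the retinoid, growth factor and matrix values was not tested. In batch 2, 3 of the 20 were called lower and the median was -0.76. Leaving out 1 batch 1 library gave 2 to 17 called, the most without flox library 1.

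Cartilage and bone genes had the lowest median of the 40 lists. Of 12, 9 were tested, 2 were called lower, and all 9 had differences below 0, with a median of -2.36. Chad, the cartilage protein chondroadherin, fell from 2.09, 17.5 and 10.1 to 0.206, 0.562, 1.16 and 0.351 CPM (edgeR adjusted p = 0.0329). Spp1, osteopontin, fell from 356, 445 and 607 to 224, 294, 236 and 222 CPM, with an edgeR adjusted p of 0.0497 that is near the threshold, and it was called in 8 of 20 alternatives. Chad and Spp1 both lost their calls without knockout library 1, 2 or 3 or flox library 2 or 3. The list had at most 1 call without each of these libraries, and 4 without knockout library 4 or flox library 1. Spp1 also stands in the list of large-diameter neuron genes, where it was the only called member of 10 (median 0.33). Mmp13, a collagenase, fell from 7.497, 22.6 and 46.3 to 2.74, 1.34, 3.93 and 3.16 CPM, Osr1, a mesenchymal transcription factor gene, from 6.76, 31.2 and 21.6 to 1.72, 2.18, 1.67 and 4.47 CPM and Coch from 9.49, 18.7 and 10.6 to 3.22, 0.422, 1.38 and 1.05 CPM. Flox library 1 was the lowest flox library for each of these but Otoa, which fell from 19.3, 11.4 and 12.97 to 2.47, 3.16, 0.436 and 0.876 CPM. Mmp13 and Osr1 lost their calls without any of 5 libraries in turn, and Coch and Otoa without any of 4. In batch 2 Otoa was called lower, while Mmp13, Osr1 and Coch were not called, with log2 differences of 0.772, -0.486 and -0.706.

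Further falls touched single genes of other cell types. Krtdap, known from differentiating keratinocytes, fell from 2.64, 17.9 and 6.21 to 0.274, 0.352, 0.436 and 0.263 CPM and was the only 1 of 6 tested keratinocyte genes called (median -0.19). Its call was lost without knockout library 1 or 2. Of the keratins on that list, Krt5 had at most 1 count in a library, Krt14 50, Krt1 100 and Krt10 786. Gkn3, a gene of arterial endothelium in the nervous system, fell from 6.13, 11.1 and 11.03 to 1.37, 0.562, 0.872 and 1.31 CPM (log2 difference -3.19 ± 0.39, edgeR adjusted p = 0.00651). Acta2, smooth muscle actin, fell from 53.8, 91.5 and 94.5 to 16.9, 18.9, 24.4 and 42.4 CPM and was the only 1 of 10 endothelial and mural genes called (median -0.30). Acta2 lost its call without knockout library 1, 2 or 3 or flox library 2 or 3, and 2 of the 10 were called lower without knockout library 4. Slc7a11, the cystine transporter, fell from 17.5, 58.7 and 41.99 to 5.97, 4.78, 6.61 and 5.78 CPM (edgeR adjusted p = 0.00859). Ppp1r1a, an inhibitor of protein phosphatase 1, fell from 88.6, 96.9 and 85.5 to 39.9, 38.5, 27.5 and 45.04 CPM with little spread in the flox libraries (log2 difference -1.26 ± 0.17, edgeR adjusted p = 0.0106). Asgr1 fell from 6.51, 22.8 and 14.5 to 1.24, 2.32, 1.02 and 2.37 CPM, Cyp2f2 from 1.35, 4.87 and 2.78 to 0.274, 0.0703, 0.363 and 0.526 CPM and Ecrg4 from 10.8, 85.1 and 32.3 to 3.57, 5.98, 3.78 and 4.91 CPM. Zfp781b had no count in any knockout library and was at 2.01, 2.47 and 0.9803 CPM in flox libraries. Against 3 counts in each knockout library it was at least 8.11-fold lower. Asgr1 lost its call without any of 4 libraries in turn, Cyp2f2 and Zfp781b without any of 5 and Ecrg4 without any of 6.

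Among glial lists, myelin and Schwann cell genes had 1 of 11 called lower and none higher, all 11 below 0 and a median of -0.54. Gjb1, the gap junction protein connexin 32 of myelin, fell from 20.5, 13.8 and 14.5 to 3.98, 3.73, 4.72 and 8.24 CPM (edgeR adjusted p = 0.0328). Mbp, myelin basic protein, was at 1165, 1382, 2434 and 2561 against 3246, 3832 and 3468 CPM, without overlap (edgeR adjusted p = 0.142). None of 9 satellite glia genes was called (median -0.08), with Gfap at 67.3, 70.1, 159 and 136 against 279, 157 and 229 CPM. None of 9 spinal cord genes was called either (median -0.56), and Opalin, a gene of central myelin, ranged from 0.0686 to 2.33 CPM in knockout and from 1.83 to 5.41 CPM in flox libraries. None of 6 tested adipocyte genes (median -0.99) and none of 10 skeletal muscle genes (median 0.42) was called. The adipocyte median turned to 0.29 without flox library 3. The muscle median turned to -3.22 without knockout library 4, and 2 muscle genes were then called lower. The myelin list had 3 genes called lower without knockout library 4, and none when any other single library was left out.

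Clock genes fell in part. Of 16 tested, 2 were called lower and none higher, with a median of -0.56. Nr1d1, the repressor REV-ERB alpha, fell from 42, 83.2 and 38.7 to 9.81, 10.6, 14.6 and 21.2 CPM (log2 difference -1.96 ± 0.34, edgeR adjusted p = 0.0285). Hlf, an activator that binds D-box elements, fell from 34.3, 76.5 and 57.9 to 12.9, 15.04, 22.1 and 22.1 CPM (log2 difference -1.64 ± 0.29, edgeR adjusted p = 0.0295). Dbp, a related activator, was at 7.55, 4.57, 20.6 and 28.1 against 32.4, 119 and 79.2 CPM with an edgeR adjusted p of 0.137, and Clock was at 31.7, 38.9, 34.4 and 31.7 against 26.7, 33.99 and 33.3 CPM. Bmal1 overlapped between groups at 3.64, 4.99, 4.72 and 1.402 against 4.92, 3.14 and 0.939 CPM. Both calls were lost without knockout library 1, 2 or 3 or flox library 2 or 3, where no clock gene was called, and 4 were called lower without knockout library 4. The hour of tissue collection is not given in the labels.

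Sensory neuron genes outside the NP3 class were counted in separate lists. All 11 sensory neuron markers were tested and abundant, and their summed level was 6217 to 7610 CPM in knockout and 4227 to 6574 CPM in flox libraries, so the defining genes of the labelled tissue were present. Isl1, a transcription factor of sensory neurons, was the only one called, at 154, 149, 152 and 114 against 76.9, 60.9 and 63.9 CPM (2.12-fold, edgeR adjusted p = 0.0152), and the median of the list was 0.35. All 11 markers had log2 differences above 0, and 9 had without knockout library 1 or without flox library 2. The part of the neuronal share of RNA in the values of single neuronal genes was not tested. Of 8 peptidergic nociceptor genes, Trpv1, the capsaicin receptor, rose from 43.8, 29.7 and 35.4 to 121, 98.5, 73.5 and 63.9 CPM (2.46-fold, edgeR adjusted p = 0.0324), with a list median of 0.58. Tac1, the substance P gene, was at 518, 429, 397 and 398 against 313, 261 and 216 CPM, and Calca at 3128, 3492, 2717 and 2671 against 2198, 2081 and 1651 CPM. Both were without overlap and not called, with edgeR adjusted p of 0.0722 and 0.112. Without knockout library 4, 3 of the 8 were called higher, and none was without knockout library 1, 2 or 3 or flox library 2 or 3. The call of Isl1 was lost without knockout library 1 or 3 or flox library 2 or 3, and 2 of the 11 markers were called without knockout library 4 or flox library 1.

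Of 11 genes of the other itch classes, NP1 and NP2, none was called and the median was -0.34. Mrgpra3, a chloroquine receptor gene, ranged from 1.24 to 36.7 CPM over the knockout libraries alone, with the lowest value in library 1. Cd55, an NP1 surface protein gene, was at 348, 430.1, 185 and 196 against 583, 524 and 497 CPM (edgeR adjusted p = 0.161). None of 5 tested C-fibre mechanoreceptor genes was called (median -0.25), with Gfra2 at 67.4, 54.9, 40.6 and 30.1 against 87, 59.1 and 76.95 CPM. Among 11 excitability genes (median 0.19), Kcnq3, a potassium channel, rose 2.52-fold, and Cacna2d1, the calcium channel subunit that binds gabapentin, rose 1.904-fold. Kcnk2, the potassium channel TREK-1, fell from 6.68, 17.3 and 13.5 to 3.36, 2.67, 2.98 and 3.77 CPM (edgeR adjusted p = 0.0255). None of these 3 was called without knockout library 1 or 3 or flox library 2 or 3. Of the 9 tested genes of the natriuretic peptide system, Nppb was the only one called (median -0.11). Npr1, the receptor for the Nppb peptide, was at 1.44, 0.703, 2.91 and 5.61 against 3.89, 4.85 and 6.84 CPM, Npr3, the clearance receptor, at 1.03, 3.52, 2.76 and 4.73 against 4.63, 12 and 7.801 CPM, and Furin, a convertase that cleaves the precursor, at 111, 60.2, 85.9 and 169 against 81.6, 100 and 65.98 CPM. These 3 overlapped between groups.

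The remaining lists held no called gene. Cholesterol and fatty acid synthesis genes (14 tested) had a median of 0.37, with all 14 above 0. Glucocorticoid response genes (10 tested) had a median of 0.36, cell cycle genes (10 tested) 0.38 and nuclear respiratory chain genes (13 tested) 0.13. Mitochondrially encoded genes (13 tested) and cytosolic ribosomal protein genes (14 tested) both had a median of -0.16, and Hox genes (13 tested) one of -0.30. At an unadjusted p under 0.05, the edgeR test found 5 of the cholesterol genes and 3 of the cell cycle genes higher. In the other lists of this group it found at most 1 gene. Over all genes DESeq2 called 1151. Over the 20 lists without a call, it called 12 genes in the fibroblast list, 2 each in the NP1 and NP2, satellite glia and cholesterol lists, and at most 1 in any other. It called none of the erythroid, skeletal muscle, adipocyte, spinal cord, respiratory chain, mitochondrial or ribosomal genes, in which no gene passed an unadjusted p of 0.05 either. Limma-voom called no gene of these 20 lists outside the fibroblast list.

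**Figure D3:**
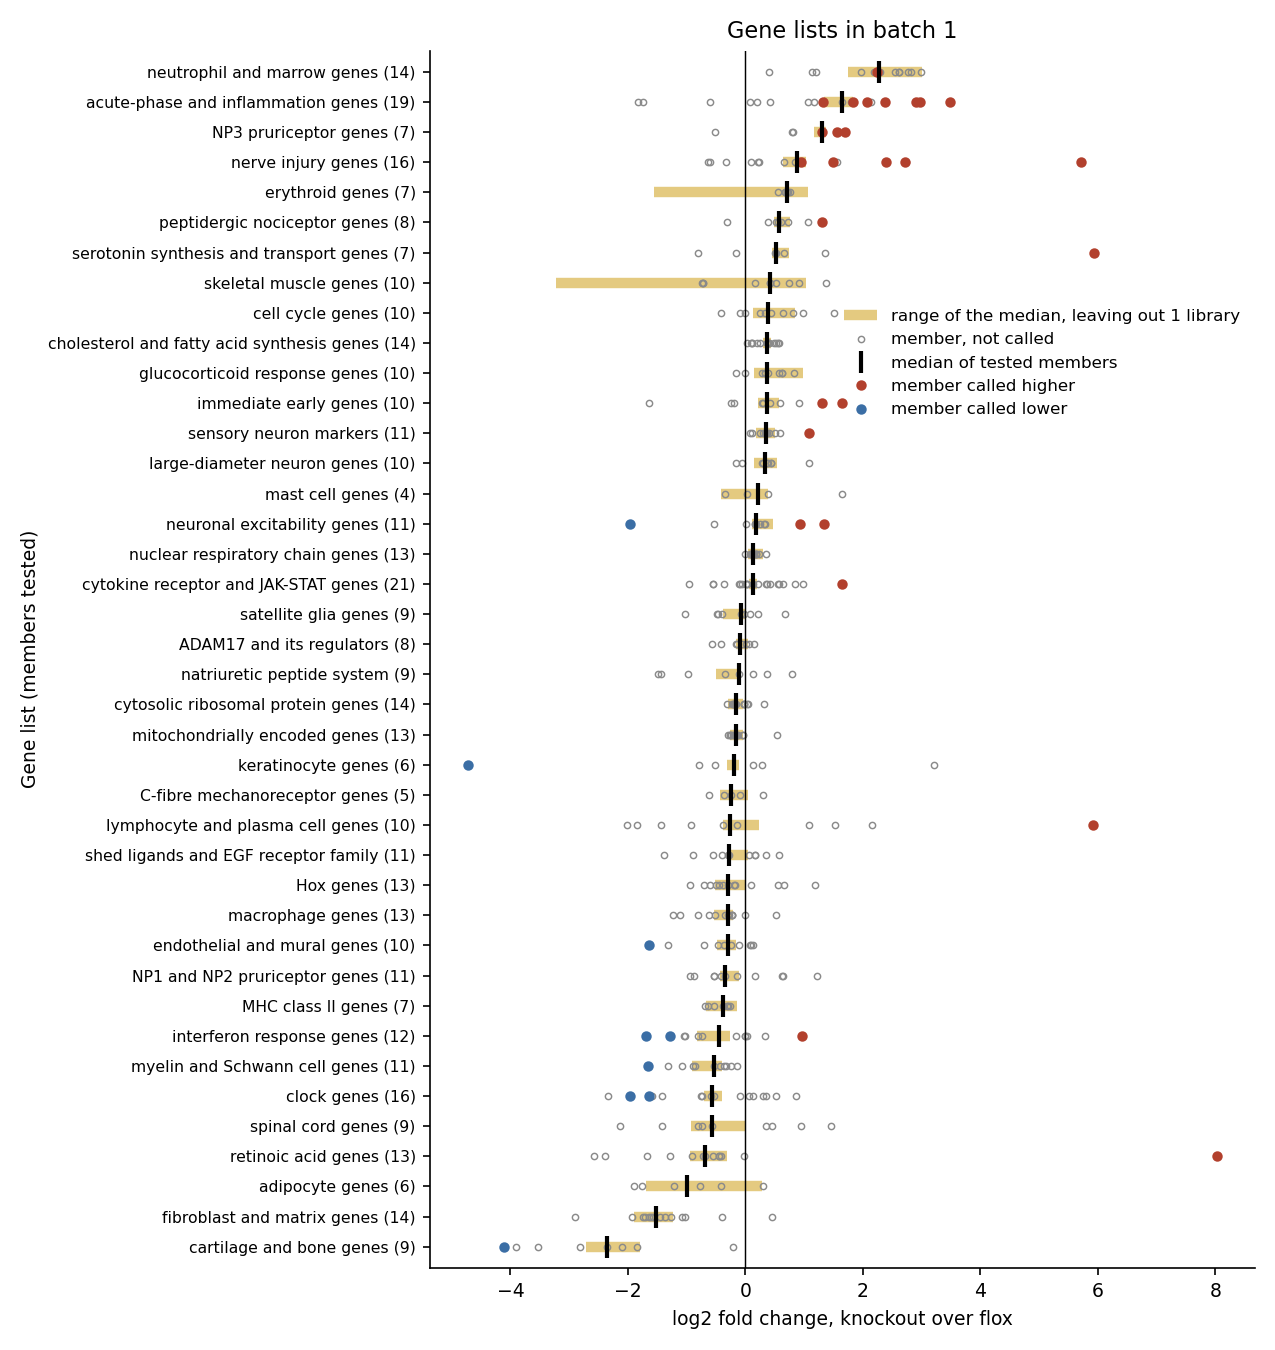
Log2 fold change of knockout over flox for the tested members of each of the 40 gene lists, ordered by median (black bar), with called members filled and the yellow band giving the range of the median when 1 library is left out. Nppb and Spp1, each on more than 1 list, count in the medians but are not drawn as points. Neutrophil, acute-phase and NP3 genes lie highest and cartilage, matrix and adipocyte genes lowest, and the bands of the erythroid, muscle, adipocyte, mast cell, lymphocyte, C-fibre, shed ligand and ADAM17 lists reach across 0.

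The comparison was repeated at equal depth. With all libraries thinned to the smallest total, 261 genes were called, 168 higher and 93 lower. Of the 273 calls 237 were kept, 36 were lost and 24 genes were called only after thinning. Cysltr2, Chad, Otoa and Spp1 were among the named genes that lost their call. Among genes with a mean under 1 CPM, 0.475% of 631 were called, 1.3% at 1 to 4 CPM, and 1.85% to 2.17% in the 3 classes above. The typical gene under 1 CPM had 9.5 counts in a knockout and 39.7 in a flox library, and its SE was 0.66 on the log2 scale against 0.17 at 64 CPM and over. At such levels a difference of the sizes reported here was often not detectable. The calls at 4 to 16 CPM were 36 higher and 46 lower, and at 64 CPM and over 50 higher and 9 lower.

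The number of calls depended strongly on single libraries. Without knockout library 1, 2 or 3, or without flox library 2 or 3, 47 to 106 genes were called. Without knockout library 4, 882 genes were called, 400 higher and 482 lower, and 268 of the 273 were among them. Without flox library 1, 675 genes were called, 226 higher and 449 lower, and 248 of the 273 were among them. A set of 42 genes was called in all 7 of these tests, 37 higher and 5 lower. The 5 are Igf1, Rbp4, Gkn3, Fmod and Igfbp2, and the 37 include Cyp26a1, Tph1, Lrat, Fam210b, Galnt6, Bdnf, Alkal2, Tifa, Socs3, Serpina3n, Sox11 and Fst. Of 69 called genes chosen by the naming rule, 24 kept their call in all 7 tests. Another 7 lost it without 1 library only, which was flox library 3 for Nppb, Il31ra, Cyp1a1, Slc7a11 and Ppp1r1a, flox library 2 for Osmr and knockout library 2 for Igf2. The other 38 lost it without more than 1 library. Flox library 3 ended 42 of these calls, flox library 2 ended 36 and knockout library 4 ended 2, those of Gjb2 and Ecrg4.

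**Figure D4:**
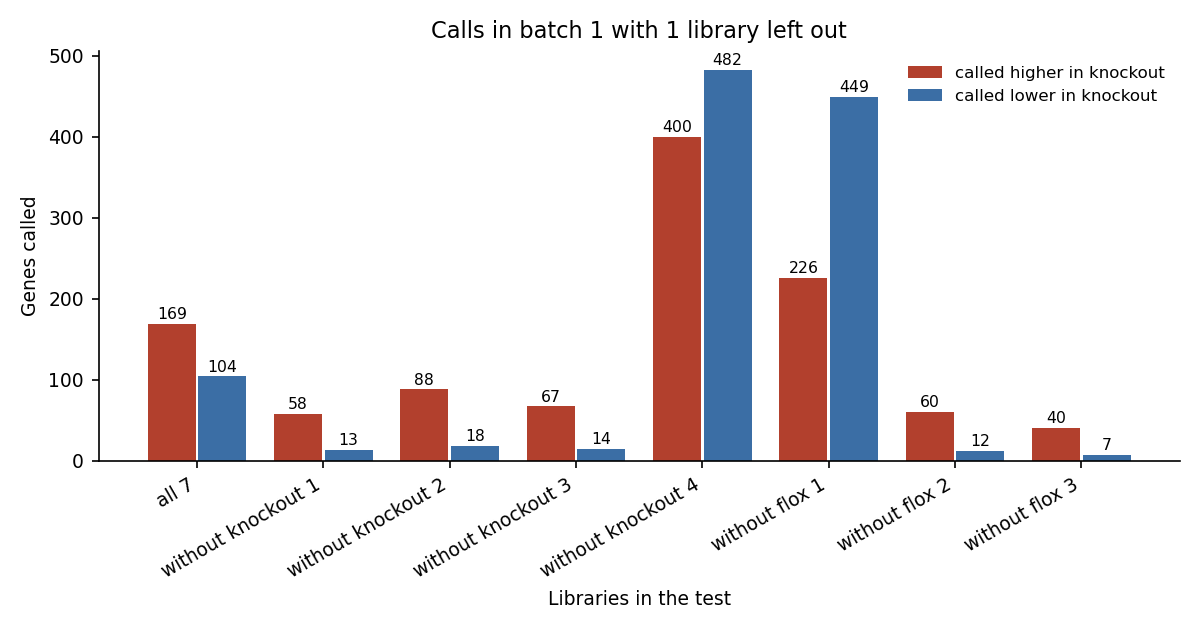
Genes called higher (red) and lower (blue) in the knockout with all 7 libraries and with each library left out. The bars are tallest without knockout library 4 and without flox library 1, and the lower calls change most, from 7 to 482.

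Batch 2 of the same series gave another reading of the genes called here, in 3 knockout and 4 flox libraries whose depths were closer together, at 27868213 to 35989743 estimated counts. The Y-linked gene Ddx3y was at 63.9 and 72.9 CPM in knockout libraries 6 and 7, which are of batch 2, and at most 0.176 CPM in the other batch 2 libraries and in all of batch 1. The part of sex in the batch 2 values and in the differences between batches was not tested. There 2085 of 15780 tested genes (13.2%) were called, 1140 higher (7.22%) and 945 lower (5.99%). Of the 169 genes called higher in batch 1, 163 had the same sign in batch 2, 124 were called higher and none lower, with medians of 1.52 and 1.49. Of the 104 called lower, 102 were tested, 96 had the same sign, 37 were called lower and none higher, with medians of -2.12 and -0.95. Nppb was at a log2 difference of 1.87 ± 0.30 (SE) in batch 2, Il31ra at 1.86 ± 0.37, Cyp26a1 at 10.02 ± 0.57 and Igf1 at -1.61 ± 0.36. The difference between batches was not called for any of these 4. The other falls that stayed called without any 1 batch 1 library were not called in batch 2. Their log2 differences there were -0.575 for Rbp4, -1.182 for Gkn3, -0.731 for Fmod and -1.183 for Igfbp2. The edgeR adjusted p in batch 2 were 0.572, 0.192, 0.438 and 0.053. For these genes too the difference between batches was not called.

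Of 16785 genes tested for a genotype effect that differed between batches, 155 (0.923%) were called, and 3 of them were among the 273. Gm7334 is annotated as a processed pseudogene, so its reads may be shared with a similar gene and its values are uncertain. It was at 13.7, 13.9, 13.5 and 26.6 CPM in knockout and 0.816, 1.77 and 1.29 CPM in flox libraries of batch 1. Its log2 difference was 3.71 ± 0.39 in batch 1 and -0.35 ± 0.31 in batch 2 (edgeR adjusted p of the difference 6.01e-04). Cytl1, a cytokine-like gene known from cartilage, was at 7.202, 7.94, 6.98 and 12.97 against 18.8, 30.5 and 24.5 CPM, with log2 differences of -1.49 ± 0.27 and 0.60 ± 0.28 (edgeR adjusted p of the difference 0.0247). Otop1, at 0 in the flox libraries of batch 1, had a log2 difference of -0.75 ± 0.49 in batch 2 (edgeR adjusted p of the difference 0.00368). Nts, not called in batch 1, was at 2.66 ± 0.23 in batch 2, and its effect was smaller in batch 1 by 1.82 on the log2 scale (edgeR adjusted p = 0.0291).

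**Figure D5:**
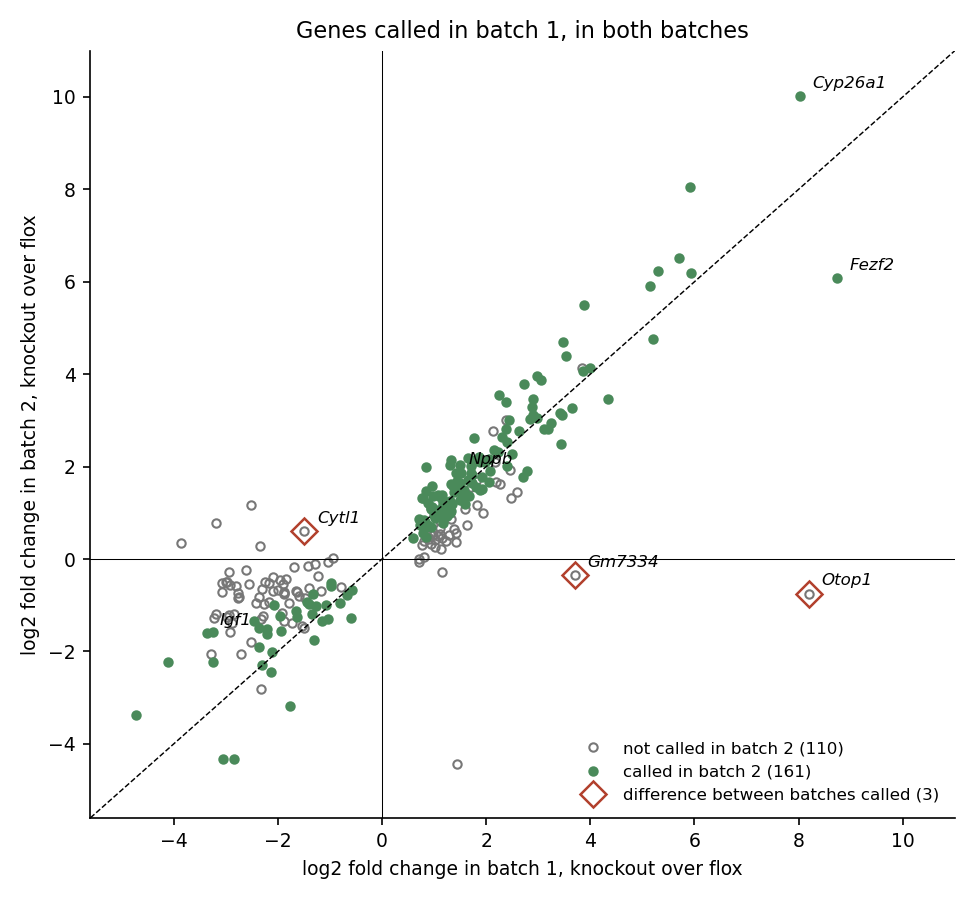
Log2 fold change of knockout over flox in batch 2 (vertical axis) against batch 1 (horizontal axis) for the 271 genes called in batch 1 and tested in both, filled where called in batch 2, with a dashed line of equal values. Genes called higher lie along the line, most genes called lower lie nearer 0 in batch 2, and Otop1, Gm7334 and Cytl1 (diamonds) are those whose batch difference was called.

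Genes near Adam17 on chromosome 12 were counted apart. Within 20 Mb on either side, 142 genes were tested and 6 were called (4.23%, against 1.8% of all tested genes), 4 higher and 2 lower. Alkal2, Mycn, Sdc1 and Sox11 were higher and Osr1 and Gm28503 lower, the last with no count in the knockout libraries and at least 4.44-fold lower against 3 counts in each. Whether the share near Adam17 differs from that elsewhere was not tested.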

How the data were processed

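Dorsal root ganglion RNA of 4 ADAM17 knockout and 3 flox libraries of batch 1 was analysed. The authors deposited estimated (not always whole) counts and TPM for each gene, made with kallisto on GRCm38 per the submitters' processing notes. Neither the version of kallisto nor the use of strand is given in the sources used here. Reads shared by similar transcripts are split by its model, so paralogs and pseudogenes are uncertain, as are overlapping and antisense genes. The deposited TPM columns of batch 1 do not reach the same sum, so levels are given as CPM computed from the deposited estimated counts, and TPM was used in alternatives only. A row naming no gene (0.0785% to 0.129% of counts in batch 1) was left out. Monkey libraries were not used.

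Counts were rounded and tested in R 4.3.3 with edgeR 4.0.16 (quasi-likelihood, filterByExpr, minimum count 10 and minimum total 15, TMM scaling, robust), on batch 1 alone. Benjamini-Hochberg adjusted p under 0.05 was called. SE came from the F statistic. Batch 2 was fitted in the same way, and the difference between batches over 14 libraries in 4 groups. The test was checked on simulated counts. DESeq2 1.42.0, limma 3.58.1, other scalings, filters, thinning to the smallest total, a replicate block and leaving out each library were alternatives. No 2 libraries of the same genotype in batch 1 were copies: chi-square per gene was at least 22.1. Other pairs were not compared. Replicate numbers were not taken to pair libraries.

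Members, the 40 gene lists and tests were chosen with earlier results of these data known. Named genes were Nppb, Adam17 and the NP3 list, the 15 largest called changes in each direction among genes with a mean of at least 1 CPM in the higher group whose groups do not overlap (predicted genes left out), the 5 lowest p in each direction besides, up to 4 called members of each list by p (or its lowest-p member), and called genes whose batch difference was called. A few genes that the rule names are not reported here, though counts include them. Others were named as examples of lists after their values were seen. Coordinates are from GENCODE M21 (27894 of 29766 genes matched by symbol), and promoters, the 250 bases before the start, from RefSeq GRCm38.p6.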

Additional observations from a re-analysis of the deposited data

Results flagged for a closer look

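Of 93 named genes, 5 had a knockout library far from the other 3 by Dixon's test, where chance gives about 5% of groups. Knockout library 4 was the distant one in 4 of the 5. Osmr was at 85.74 CPM in knockout library 1, against 58.13 to 60.47 in the other 3. Isl1 was at 114.4 CPM in knockout library 4, against 149.1 to 153.9. Myh1, a myosin gene of skeletal muscle, was at 182.4 CPM in knockout library 4, against 1.828 to 21.08. Gm7334 was at 26.55 CPM there, against 13.52 to 13.92, and Cytl1 at 12.97 CPM, against 6.978 to 7.943.

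The genotype effect differed between batches for 4 named genes in the edgeR test of the difference itself (batch 1 minus batch 2, log2). The difference was -1.824 for Nts, with an edgeR adjusted p of 0.0291, and all 4 knockout libraries of batch 1 were above the flox libraries. It was 4.097 for Gm7334 (edgeR adjusted p = 6.01e-04) and -2.057 for Cytl1 (edgeR adjusted p = 0.0247), and neither gene overlapped between the groups of batch 1. It was 8.885 for Otop1 (edgeR adjusted p = 0.00368), a size that depends on the prior count because the flox libraries of batch 1 held no count. Without 1 batch 1 library, 44 to 207 genes showed such a difference instead of 155.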

How the results depend on the processing

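Against 273 calls (169 higher, 104 lower), DESeq2 gave 1151 (590 and 561), the fit of all 14 mouse libraries 552 (293 and 259) and the replicate block over numbers 1 to 3, without knockout library 4, 646 (270 and 376). The deviations of log CPM from each gene's group mean correlated at 0.013, -0.132 and 0.131 between same-numbered libraries. The numbers were therefore not taken as pairs. Calls lower in the knockout were 40 with limma-voom, 162 on log2(TPM + 1) and 181 on rescaled TPM. Leaving out 1 library gave 47 to 882 calls, 40 to 400 higher and 7 to 482 lower in batch 1, 1036 to 1848 in batch 2 and 44 to 207 for the difference between batches. Nppb kept its direction throughout, at 1.27 to 1.61 without 1 library, and its call except without flox library 3. Other scalings and filters, thinning and leaving out mitochondrial genes gave 253 to 302 calls. The sign of the uncalled genes Adam17 and Myh1 turned. Adam17, at -0.06, was 0.074 on log2(TPM + 1), 0.081 on log2(TPM + 0.1) and -0.275 to 0.137 without 1 library (above 0 without knockout library 2 or 3 or flox library 2). Myh1 was -0.089 with limma-voom, -0.984 with the replicate block and -0.719 to 2.155 without 1 library, below 0 without knockout library 4. The cause of these changes was not tested. Genes under 1 CPM had a median of 9.5 counts in knockout and 39.7 in flox libraries. Their median SE of 0.66 was the largest of the level classes, so their differences are the least certain.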

Other observations

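Genes for peptides and for transmitter receptors stood among the other genes called higher, and were picked for description after their values were seen. Cartpt, the CART peptide precursor, was at 363, 212, 222 and 119 CPM in knockout and 43.1, 18.4 and 21.4 CPM in flox libraries (log2 difference 3.05 ± 0.45, edgeR adjusted p = 0.0172). Vgf, a granin-like peptide precursor, was at 236, 139.8, 239.9 and 228 against 49.96, 52.6 and 65.2 CPM (log2 difference 1.91 ± 0.22, edgeR adjusted p = 0.004302). Npy1r, a neuropeptide Y receptor, was at 39.03, 32.1, 52.8 and 59.5 against 9.76, 11.3 and 4.901 CPM, and Cckar, a cholecystokinin receptor, at 80.9, 79.4, 59.3 and 49.1 against 18.7, 14.8 and 20.1 CPM. Avpr1a, a vasopressin receptor, was at 12.9, 9.77, 9.303 and 7.01 against 1.27, 1.43 and 0.4901 CPM. The knockout and flox libraries did not overlap for any of these 5 genes. Of these, Vgf, Npy1r, Cckar and Avpr1a stayed called without any 1 library, and Cartpt lost its call without knockout library 2 or flox library 2 or 3. Tacr1, the substance P receptor, was at 5.83, 3.09, 11.3 and 14.1 against 0.607, 0.295 and 1.45 CPM (edgeR adjusted p = 0.0451), and Htr1a, a serotonin receptor, at 15.6, 13.6, 13.5 and 7.62 against 4.75, 2.07 and 2.82 CPM (edgeR adjusted p = 0.0323). Gfra3, the receptor for artemin, was at 58.7, 36.97, 73.1 and 55.8 against 16.7, 25.3 and 19.5 CPM (edgeR adjusted p = 0.02498). The calls of Tacr1 and Htr1a were each lost without any of 5 libraries and that of Gfra3 without any of 4, among them knockout libraries 1 and 3 and flox libraries 2 and 3 for all 3 genes.

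Sting1, a sensor adaptor of cytosolic DNA, was at 101, 69.3, 94.9 and 78.8 against 3.83, 11.8 and 8.64 CPM (log2 difference 3.41 ± 0.37, edgeR adjusted p = 0.00422). Adam8, another metalloproteinase of the ADAM family, was at 35.8, 29.9, 29.2 and 21.8 against 7.31, 8.202 and 8.33 CPM (log2 difference 1.88 ± 0.20, edgeR adjusted p = 0.00389). Both stayed called without any 1 library. Their log2 differences in batch 2 were 3.15 and 2.10.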
